A study of Mus musculus with 12 samples.

Results

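The genes described here are 9 transport genes of the distal convoluted tubule, the nephron segment between the thick ascending limb and the connecting tubule. They were chosen by name, Slc12a3, Wnk1, Wnk4, Klhl3, Trpm6, Trpv5, Calb1, Slc8a1 and Pvalb, and all 9 were found among the 54532 genes listed for each library. Kidney RNA came from C57BL/6 mice in 4 groups of 3 mice. β-catenin knockout mice were compared with wild-type mice after UUO (unilateral ureteral obstruction, in which 1 ureter is tied). Mice labelled CD44 knockout were compared with another set of wild-type mice after UIRI (unilateral ischemia-reperfusion injury, in which 1 renal pedicle is clipped and released). In the UIRI model that the study describes, the other kidney was also removed shortly before the mice were killed. Its text does not mention CD44 knockout mice, so whether they were treated in this way is not known here. The C57BL/6 mice that the study purchased were male. In the β-catenin knockout mice, floxed Ctnnb1 was deleted by Cre under the Ksp-cadherin (Cadherin-16) promoter, which is active mostly in collecting duct, loop of Henle and distal tubule and less in proximal tubule. By staining, the study reported loss of β-catenin in distal and connecting tubules and in most proximal tubules. Its discussion puts the proximal loss at some extent only. The study names Ksp-Cre mice as controls for later work, so the wild-type mice appear not to have carried this Cre. Whether they carried floxed alleles, the kind of CD44 deletion and the days after UUO are not given in the sources used here, and no kidney without injury was analysed here.

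The distal convoluted tubule takes up sodium and chloride from the tubular fluid through the thiazide-sensitive cotransporter NCC, encoded by Slc12a3. The kinases WNK1 and WNK4 act through the kinases SPAK and OSR1, which phosphorylate NCC and switch it on, and KLHL3 is the adaptor through which a cullin-3 ubiquitin ligase marks WNK kinases for degradation. The same segment reclaims magnesium through the channel TRPM6, and its later part reclaims calcium through the channel TRPV5, the buffer calbindin-D28K (Calb1) and the sodium-calcium exchanger NCX1 (Slc8a1), while parvalbumin (Pvalb) is a calcium buffer of its early part. In whole kidney RNA, fewer cells of a type and less RNA per cell cannot be told apart, nor can the cells that a gene's reads came from.

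β-catenin reaches DNA through the TCF/LEF factors, and the Slc12a3 promoter is shown because it was the 1 member promoter that held the letters of their site. Promoters were 300-base windows of RefSeq (GRCm38.p6), from 250 bases before a gene's start to 50 bases after it. Windows were found for 8 of the 9 genes (not Calb1). The letters searched on both strands were CTTTGAA or CTTTGAT, and likewise CTTTGTA or CTTTGTT. Of all 32851 windows, 16.9% held at least 1 of them. The match is in capitals and its first base is base 11 counted from the start site. This is a description of letters and not of a bound site. The window is chr8:94328958-94329257, on the + strand.
Slc12a3: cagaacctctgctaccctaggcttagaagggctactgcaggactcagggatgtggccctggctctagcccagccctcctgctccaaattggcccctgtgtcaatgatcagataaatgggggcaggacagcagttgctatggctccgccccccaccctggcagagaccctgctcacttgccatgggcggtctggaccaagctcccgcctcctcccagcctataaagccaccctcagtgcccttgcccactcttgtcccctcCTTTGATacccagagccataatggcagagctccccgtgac

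The next promoters are shown because their genes, Wnk4, Klhl3 and Trpm6, were the members that passed the test after UUO. No match to the letters searched was found in these windows. They are chr11:101260317-101260616 (+ strand) for Wnk4, chr13:58113598-58113897 (− strand) for Klhl3 and chr19:18749480-18749779 (+ strand) for Trpm6.
Wnk4: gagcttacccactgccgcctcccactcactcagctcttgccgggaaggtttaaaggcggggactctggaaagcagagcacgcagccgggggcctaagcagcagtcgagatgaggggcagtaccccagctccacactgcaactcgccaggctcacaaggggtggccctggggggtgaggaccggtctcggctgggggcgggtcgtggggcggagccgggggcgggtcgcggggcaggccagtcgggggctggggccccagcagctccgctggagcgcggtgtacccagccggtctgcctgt
Klhl3: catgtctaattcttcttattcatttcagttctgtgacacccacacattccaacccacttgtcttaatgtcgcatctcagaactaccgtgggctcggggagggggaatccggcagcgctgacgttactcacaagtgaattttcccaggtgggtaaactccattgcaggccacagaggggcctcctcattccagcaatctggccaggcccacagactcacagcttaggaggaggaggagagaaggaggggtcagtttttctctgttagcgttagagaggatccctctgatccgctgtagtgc
Trpm6: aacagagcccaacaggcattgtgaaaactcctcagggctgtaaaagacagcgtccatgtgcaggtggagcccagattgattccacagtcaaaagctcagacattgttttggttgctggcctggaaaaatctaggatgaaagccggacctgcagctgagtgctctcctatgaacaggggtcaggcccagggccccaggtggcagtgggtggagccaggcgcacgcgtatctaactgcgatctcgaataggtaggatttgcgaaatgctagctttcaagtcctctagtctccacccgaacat

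Expression was given as FPKM, the fragments of a gene per kilobase of its length, divided by a depth term for each library. This term followed a median-of-ratios size factor of the library within its table, and not its total reads. In β-catenin knockout replicate 2, the term was 0.902 of its table mean and the size factor was 0.906. Reads assigned to genes, recovered from the FPKM, were 16696210 to 18076032 per library after UUO and 15940405 to 20737443 after UIRI. Groups were compared within a table of 6 libraries with limma on log2(FPKM + 1), two-sided, and a gene was called at a Benjamini-Hochberg adjusted p under 0.05 over the genes that averaged 0.5 FPKM or more. With 3 mice against 3, the smallest p of an exact permutation test on 1 gene is 0.1. After UUO, β-catenin knockout mice had 1004 genes higher and 705 lower than wild-type mice, and with FPKM rescaled to the same total in every library (TPM) these counts were 578 and 1178. After UIRI, mice labelled CD44 knockout had 648 genes higher and 353 lower, and 220 and 473 with TPM. Ctnnb1 was 84.7, 71.4 and 71.7 FPKM in β-catenin knockout mice and 91.2, 86.7 and 98.5 FPKM in their wild-type mice. It lay below without overlap, as 15.9% of all genes tested did, and did not pass the test (log2 fold change −0.28, adjusted p = 0.189, limma). These are whole kidney RNA levels, while the study assessed the loss of β-catenin by protein staining. Cd44 was 19.0, 11.97 and 13.9 FPKM in mice labelled CD44 knockout and 19.9, 16.3 and 17.8 FPKM in wild-type mice (log2 fold change −0.27, adjusted p = 0.339). These groups overlap, so the Cd44 level does not check the label. Slc12a3, the defining gene of the segment, stood in every library at or above the 95.7th percentile of the genes with any read.

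**Figure D1:**
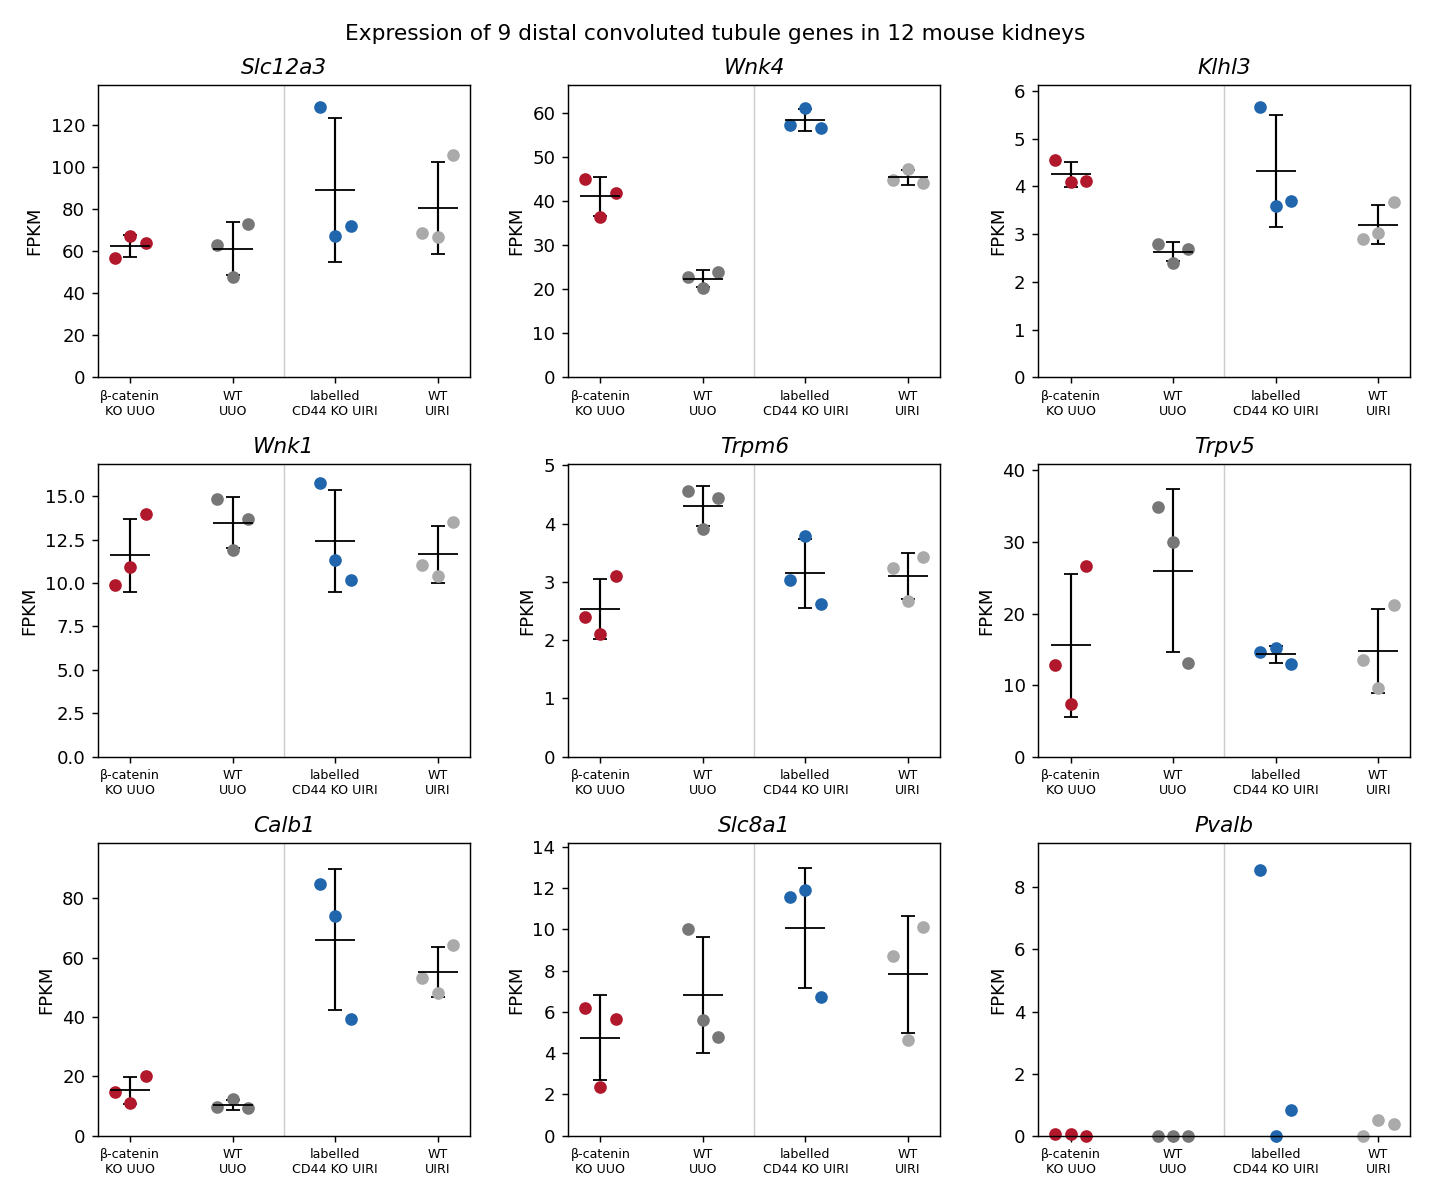
Expression of the 9 genes in each of the 12 kidneys, in FPKM on linear axes that start at 0. Points are mice, and black bars are the group mean and SD (n = 3; none for Pvalb, which had libraries at 0). After UUO, Wnk4 and Klhl3 of every β-catenin knockout mouse lie above those of every wild-type mouse, Trpm6 lies below, and Slc12a3 overlaps. Groups left and right of the vertical line come from tables normalized separately.

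Slc12a3 did not differ beyond the spread between mice after UUO. It was 56.9, 67.3 and 63.8 FPKM in β-catenin knockout mice and 62.9, 47.8 and 73.0 FPKM in wild-type mice. The wild-type mice held both the lowest and the highest value. The log2 fold change was 0.05, with a 95% confidence interval from −0.36 to 0.46 (adjusted p = 0.871, limma). The gene (ENSMUSG00000031766) lies on chromosome 8 of GRCm38 from 94329201 to 94366214, on the + strand. With TPM its fold change was −0.17, on the other side of 0.

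Wnk4, a kinase upstream of NCC, was higher in whole kidney RNA after UUO in β-catenin knockout mice than in wild-type mice. It was 45.0, 36.3 and 41.7 FPKM in the 3 knockout mice and 22.8, 20.3 and 24.0 FPKM in the 3 wild-type mice. Every knockout mouse stood above every wild-type mouse. The means were 41.0 ± 4.39 FPKM in knockout and 22.4 ± 1.86 FPKM in wild-type mice (SD, n = 3 each). Its log2 fold change was 0.84 (standard error 0.13, 95% confidence interval 0.55 to 1.14, adjusted p = 0.0137, limma). The call was kept under 11 of 12 alternatives and was lost without wild-type replicate 2 (adjusted p = 0.0596). Wnk4 (ENSMUSG00000035112) lies on chromosome 11 from 101260567 to 101277409, on the + strand. The antisense gene Gm11615 overlaps its exons and averaged 1.17 FPKM over the UUO libraries. Whether reads were counted by strand is not given in the sources used here, so reads of the pair may not be told apart.

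Klhl3, the adaptor that brings WNK kinases to the ubiquitin ligase, was also higher after UUO in the β-catenin knockout mice. Its values were 4.55, 4.09 and 4.12 FPKM in knockout mice, against 2.79, 2.41 and 2.70 FPKM in wild-type mice. The groups did not overlap, and each library held between 330 and 573 reads of the gene. This was a log2 fold change of 0.53 (standard error 0.11, 95% confidence interval 0.28 to 0.78, adjusted p = 0.0256, limma). Klhl3 (ENSMUSG00000014164) lies on chromosome 13 from 58000228 to 58113592, on the − strand. The call was kept under 5 of 12 alternatives. It was lost with TPM (adjusted p = 0.135), with no filter on low genes (0.0738) and without knockout replicate 1 (0.0805), knockout replicate 2 (0.0715), or wild-type replicate 1 (0.0668), 2 (0.0931) or 3 (0.0584), with a fold change above 0 each time.

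Wnk1 codes for a long kinase and, from an internal promoter, for a kidney-specific form without the kinase domain that is found mainly in this segment. The value of the gene sums its 26 annotated transcripts over 22825 exon bases, so these forms were not separated. Wnk1 was 9.91, 10.9 and 14.0 FPKM in β-catenin knockout mice and 14.8, 11.9 and 13.7 FPKM in wild-type mice after UUO. The groups overlap, and the log2 fold change of −0.21 (95% confidence interval −0.56 to 0.14) did not pass (adjusted p = 0.390, limma). It was −0.34 to −0.11 when a library was left out, nearest to 0 without knockout replicate 1. Wnk1 (ENSMUSG00000045962) lies on chromosome 6 from 119923969 to 120038672, on the − strand.

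Trpm6, the magnesium channel of the luminal membrane, was the 1 member called lower in β-catenin knockout mice. It was 2.40, 2.10 and 3.10 FPKM in knockout mice and 4.56, 3.91 and 4.44 FPKM in wild-type mice. Every knockout mouse stood below every wild-type mouse. The log2 fold change on the log2(FPKM + 1) scale was −0.59 (standard error 0.14, 95% confidence interval −0.92 to −0.27, adjusted p = 0.0371, limma). At this level the added 1 shrinks the change, and limma's voom on the recovered reads gave −0.77 (adjusted p = 0.0213). The call was kept under 6 of 12 alternatives. It was lost with no filter (adjusted p = 0.0967) and without knockout replicate 1 (0.103), knockout replicate 2 (0.111), or wild-type replicate 1 (0.113), 2 (0.0913) or 3 (0.0918), always with a fold change under 0. Trpm6 (ENSMUSG00000024727) lies on chromosome 19 from 18749983 to 18892510, on the + strand.

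None of the calcium genes passed the test after UUO. Trpv5, the luminal calcium channel, was 12.7, 7.29 and 26.7 FPKM in β-catenin knockout mice and 34.8, 29.9 and 13.1 FPKM in wild-type mice. Knockout replicate 3 and wild-type replicate 3 each fell within the range of the other group. The log2 fold change was −0.77, with an interval from −1.94 to 0.39 (adjusted p = 0.336, limma) that includes a fall of more than a log2 unit as well as no change. Slc8a1, the basolateral exchanger, was 6.18, 2.38 and 5.68 FPKM in knockout mice and 10.01, 5.62 and 4.77 FPKM in wild-type mice. Its groups overlap (log2 fold change −0.46, interval −1.27 to 0.35, adjusted p = 0.410, limma). Calb1, the cytosolic calcium buffer, was 14.9, 11.1 and 20.1 FPKM in knockout mice and 9.60, 12.3 and 9.41 FPKM in wild-type mice. Of these, 1 wild-type value lay within the knockout range, and the log2 fold change was 0.49 (interval −0.01 to 0.99, adjusted p = 0.177, limma). Leaving out each library in turn gave −1.23 to −0.36 for Trpv5 and −0.66 to −0.11 for Slc8a1, both nearest to 0 without knockout replicate 2, and 0.28 to 0.69 for Calb1, lowest without knockout replicate 3. Trpv5 (ENSMUSG00000036899) lies on chromosome 6 from 41652173 to 41680769 (− strand), Slc8a1 (ENSMUSG00000054640) on chromosome 17 from 81388691 to 81649607 (− strand) and Calb1 (ENSMUSG00000028222) on chromosome 4 from 15881264 to 15908064 (+ strand).

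Pvalb was close to undetected after UUO. It had 1, 1 and 0 reads in β-catenin knockout mice and 0, 0 and 0 reads in wild-type mice. A count of 0 allows up to 3 reads, which is 0.149 to 0.181 FPKM in these libraries, counting error only. Pvalb (ENSMUSG00000005716, chromosome 15 from 78191114 to 78206400, − strand) therefore fell under the filter and was not tested there.

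Of the 9 members, 8 passed the filter after UUO, and 3 of these were called, 2 higher and 1 lower, against 10.6% of all genes tested (6.21% higher and 4.36% lower). The same 3 were the members without overlap between the groups, against 35.5% of all genes tested (19.6% above and 15.9% below). The median log2 fold change of the 8 was −0.08, against 0.01 over all genes tested. Wnk4 and Klhl3 were higher in β-catenin knockout mice, Trpm6 was lower, and the other 5 did not pass.

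**Figure D2:**
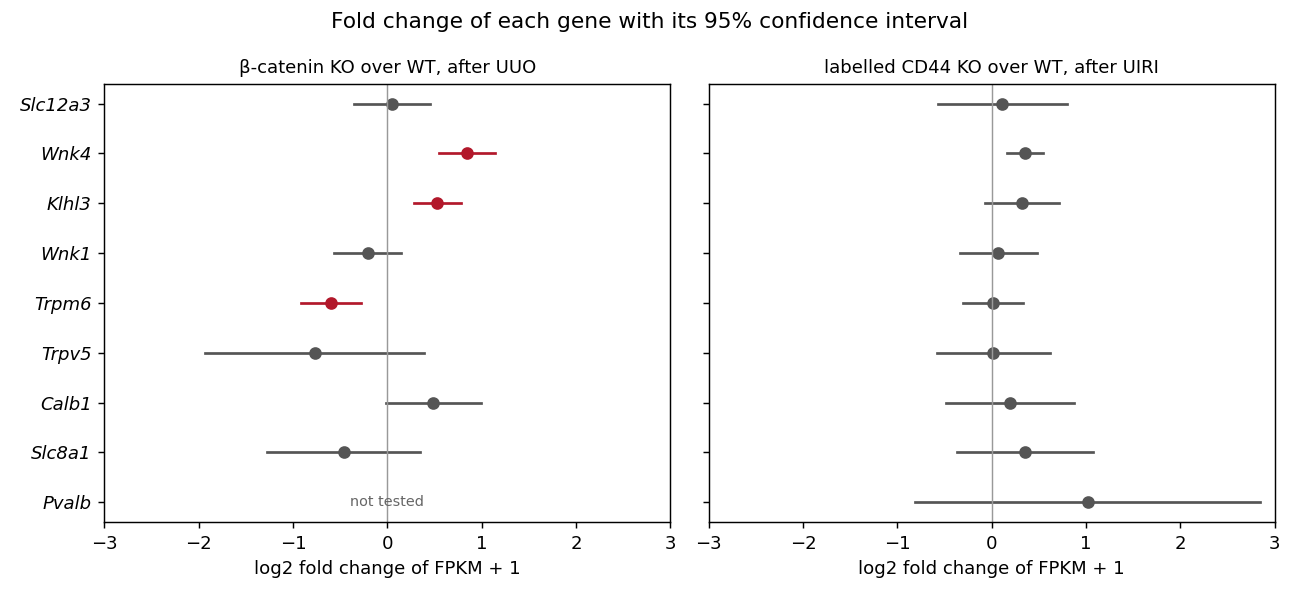
Log2 fold change of FPKM + 1 for each of the 9 genes (points) with its 95% confidence interval (lines), for β-catenin knockout over wild-type mice after UUO (left) and mice labelled CD44 knockout over wild-type mice after UIRI (right). Red marks an adjusted p under 0.05 in limma. Wnk4 at 0.84, Klhl3 at 0.53 and Trpm6 at −0.59 are red on the left, and none is red on the right, where the interval of Wnk4 runs from 0.16 to 0.55.

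Each gene was also divided by Slc12a3 of the same library, which removes the scaling between libraries. The ratio of Wnk4 to Slc12a3 after UUO averaged 0.662 ± 0.126 in β-catenin knockout mice, against 0.372 ± 0.0493 in wild-type mice (SD, n = 3 each). The ratio of Klhl3 averaged 0.0684 ± 0.0101 in knockout and 0.0439 ± 0.00671 in wild-type mice. The ratio of Trpm6 averaged 0.0406 ± 0.00881 in knockout and 0.0718 ± 0.0106 in wild-type mice. For these 3 ratios the groups did not overlap, and each gave the smallest p that 3 mice against 3 allow (exact permutation test, two-sided, p = 0.1, 7 ratios compared per table). These are the 3 genes already called on FPKM, so their ratios are not separate support. In FPKM, 35.5% of all genes tested had no overlap after UUO. Ratios to Slc12a3 were not computed for all genes. The ratios of Wnk1, Trpv5, Calb1 and Slc8a1 overlapped after UUO. After UIRI all 7 ratios overlapped.

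**Figure D3:**
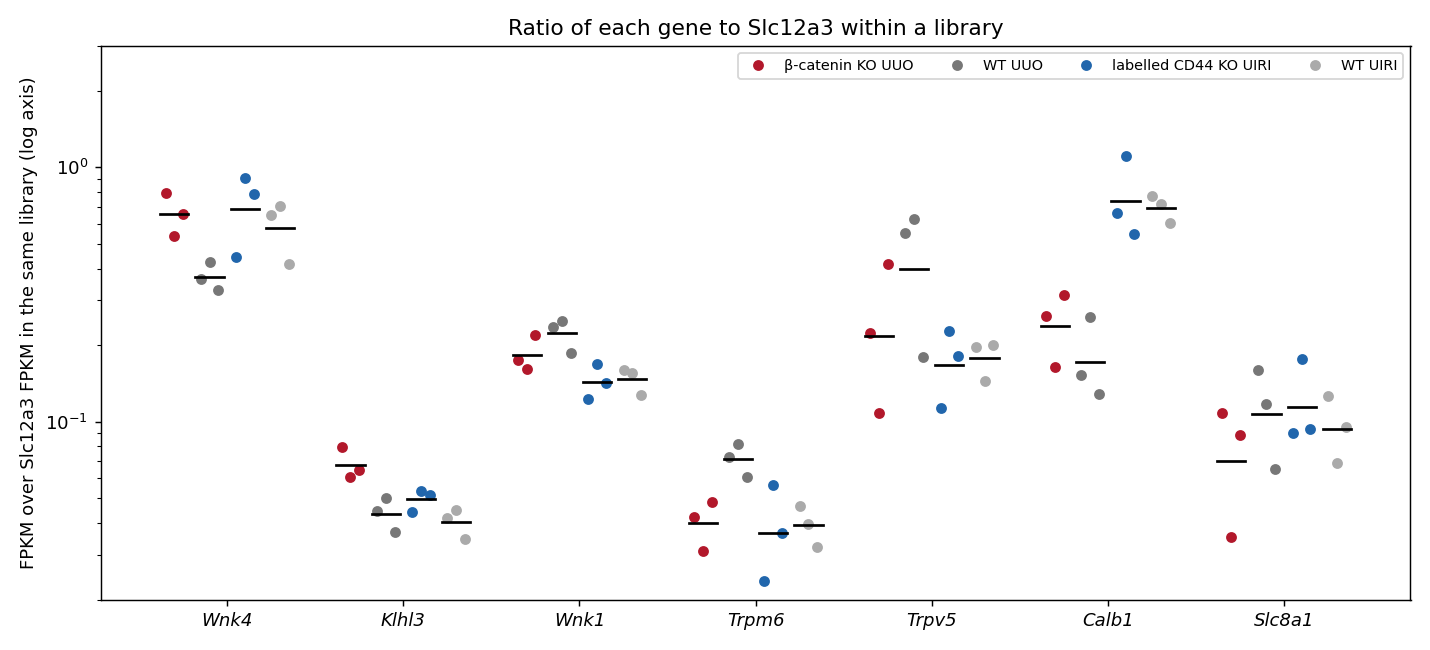
FPKM of 7 genes over Slc12a3 FPKM of the same library, on a log axis. Points are mice and black lines are geometric means of 3 mice per group. After UUO the points of β-catenin knockout mice lie above those of wild-type mice for Wnk4 and Klhl3 and below them for Trpm6. Calb1 over Slc12a3 averaged, after UUO, 0.247 in β-catenin knockout and 0.180 in wild-type mice, and 0.770 in mice labelled CD44 knockout and 0.698 in wild-type mice after UIRI.

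After UIRI, none of the 9 members was called between mice labelled CD44 knockout and wild-type mice, against 6.21% of all genes tested (4.02% higher and 2.19% lower). With limma, 1 member had an unadjusted p under 0.05, against 27.1% of all genes, and voom on the recovered reads called 1, the same gene. This gene was Wnk4. It was 57.2, 61.1 and 56.6 FPKM in mice labelled CD44 knockout and 44.7, 47.2 and 44.1 FPKM in wild-type mice. Its groups did not overlap, as for 33.5% of all genes tested. Its log2 fold change was 0.36 (standard error 0.080, 95% confidence interval 0.16 to 0.55), with an adjusted p of 0.0507 in limma, just over the threshold. Of 12 alternatives 2 called it, voom (adjusted p = 0.0421) and a filter at 1 FPKM (0.0486). The others did not, with 0.188 for TPM, where the log2 fold change was 0.23, 0.138 with the replicate block, 0.0789 with no filter, 0.0512 with a pseudocount of 0.1 and 0.0533 to 0.161 when a library was left out.

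The other members overlapped between the UIRI groups. Slc12a3 was 129, 67.1 and 71.8 FPKM in mice labelled CD44 knockout and 68.9, 67.0 and 106 FPKM in wild-type mice (log2 fold change 0.11, interval −0.57 to 0.80, adjusted p = 0.836, limma). A single mouse in each group stood well above the other two. Klhl3 was 5.67, 3.59 and 3.69 FPKM in mice labelled CD44 knockout and 2.90, 3.03 and 3.67 FPKM in wild-type mice (log2 fold change 0.32, interval −0.07 to 0.72, adjusted p = 0.258, limma). Trpm6 was 3.04, 3.78 and 2.62 FPKM in mice labelled CD44 knockout and 3.23, 2.66 and 3.42 FPKM in wild-type mice. The difference was 0.01 on the log2 scale, with an interval from −0.31 to 0.33. Wnk1 was 15.7, 11.3 and 10.2 FPKM in mice labelled CD44 knockout and 11.03, 10.4 and 13.5 FPKM in wild-type mice, with both extremes among the mice labelled knockout.

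Among the calcium genes after UIRI, Calb1 was 84.7, 74.1 and 39.2 FPKM in mice labelled CD44 knockout and 53.1, 48.0 and 64.3 FPKM in wild-type mice. The wild-type values lay inside the range of the mice labelled knockout (log2 fold change 0.19, interval −0.48 to 0.87, adjusted p = 0.703, limma). Trpv5 was 14.6, 15.3 and 12.999 FPKM in mice labelled CD44 knockout and 13.5, 9.65 and 21.2 FPKM in wild-type mice (log2 fold change 0.02, interval −0.58 to 0.61). Slc8a1 was 11.6, 11.9 and 6.73 FPKM in mice labelled CD44 knockout and 8.69, 4.63 and 10.1 FPKM in wild-type mice (log2 fold change 0.35, interval −0.37 to 1.07). These intervals allow changes of either sign.

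Pvalb after UIRI rested on a single library. It had 154, 0 and 17 reads in mice labelled CD44 knockout, or 8.54, 0 and 0.828 FPKM, and 0, 10 and 8 reads in wild-type mice, or 0, 0.522 and 0.388 FPKM. Labelled CD44 knockout replicate 1 held most of the reads, and without it the mean fell to 0.348 FPKM, under the filter, against 1.71 FPKM over all 6 libraries. The log2 fold change was 1.02 with that library (interval −0.81 to 2.84, adjusted p = 0.435, limma) and 0.08 without it. Parvalbumin is also abundant in skeletal muscle, and the skeletal muscle markers summed to 6.46, 2.21 and 4.12 FPKM in mice labelled CD44 knockout and 3.85, 2.47 and 2.05 FPKM in wild-type mice over 6 genes. Of those 6 genes, 3 were at 0 in every mouse labelled CD44 knockout and 2 in every wild-type mouse. In labelled CD44 knockout replicate 1 most of the sum was Acta1, at 4.66 FPKM. There Ckm, Myh4 and Myh1 had 0 reads, Tnnt3 had 3 reads and Mylpf was 1.69 FPKM. Mylpf was 1.74 FPKM in wild-type replicate 1, which had 0 reads of Pvalb. The part of other cells in the Pvalb reads was not tested. The same library had the highest Slc12a3, Klhl3, Wnk1 and Calb1 of its group, and without it the log2 fold changes were −0.18 for Slc12a3, 0.15 for Klhl3, −0.10 for Wnk1, −0.02 for Calb1 and 0.37 for Wnk4.

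The β-catenin and CD44 comparisons were set against each other in a single fit over all 12 libraries. None of the 8 members tested differed between the comparisons after adjustment, and 0.00646% of all genes did. At an unadjusted p under 0.05, 2 members passed, against 13.8% of all genes. For Wnk4 the log2 difference, β-catenin comparison minus CD44 comparison, was 0.49 (standard error 0.14, adjusted p = 0.205, limma). For Trpm6 it was −0.60 (standard error 0.19, adjusted p = 0.228, limma). The Trpm6 call after UUO and its absence after UIRI are thus not shown to differ. Injury, knockout and table changed together here and cannot be told apart.

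Across the 4 groups, the order of levels was led by Slc12a3. The means of Slc12a3 were 62.7 ± 5.28 FPKM in β-catenin knockout mice, 61.2 ± 12.7 FPKM in their wild-type mice, 89.2 ± 34.2 FPKM in mice labelled CD44 knockout and 80.6 ± 22.01 FPKM in their wild-type mice (SD, n = 3 each). In β-catenin knockout mice Wnk4 followed without overlap, then Trpv5, Calb1 and Wnk1, of which neighbours overlapped up to Wnk1, then Slc8a1 and Klhl3, which overlapped, then Trpm6 and Pvalb. In wild-type mice after UUO the order was Slc12a3, Trpv5, Wnk4, Wnk1, Calb1, Slc8a1, Trpm6, Klhl3 and Pvalb, and the neighbours that overlapped were Trpv5 with Wnk4, Wnk1 with Calb1 and Calb1 with Slc8a1. Klhl3 thus stood above Trpm6 in β-catenin knockout mice and below it in their wild-type mice, without overlap in either group. In both UIRI groups the order was Slc12a3, Calb1, Wnk4, Trpv5, Wnk1, Slc8a1, Klhl3, Trpm6 and Pvalb. There, among wild-type mice, Trpv5 overlapped Wnk1 and Klhl3 overlapped Trpm6, and among mice labelled CD44 knockout all neighbours overlapped except Wnk4 with Trpv5 and Slc8a1 with Klhl3. The levels are per gene length, and for Slc8a1 the length used was 2934 bases, against 18807 exon bases in GENCODE M21, so its place in the order depends on the gene model. For Trpm6 these were 6508 and 7719 bases, and for the other 7 genes they were equal.

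Calb1 was second in both UIRI groups and lower in the order of both UUO groups. It was 15.4 ± 4.56 FPKM in β-catenin knockout mice and 10.5 ± 1.64 FPKM in their wild-type mice, and 66.0 ± 23.8 FPKM in mice labelled CD44 knockout and 55.1 ± 8.32 FPKM in theirs (SD, n = 3 each). Within its own library Calb1 stood at the 76.0th to 88.5th percentile of genes with any read after UUO and at the 93.2nd to 97.0th after UIRI. All 6 UIRI libraries were above all 6 UUO libraries. No test was run across the injuries, since their tables were normalized separately.

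The partners of these genes were counted from lists by role. Of 18 partners of the WNK pathway and of sodium chloride transport, 17 were tested after UUO, 3 were higher and none was lower, with a median log2 fold change of 0.02, against 6.21% higher and 4.36% lower of all genes tested. The highest fold change was that of Sgk1, an aldosterone-induced kinase that acts on sodium transport, at 43.0 FPKM in β-catenin knockout mice and 13.5 FPKM in wild-type mice (log2 fold change 1.59, standard error 0.33, adjusted p = 0.0274, limma). Kcnj16, a basolateral potassium channel subunit, was 152 FPKM in knockout and 100.1 FPKM in wild-type mice (0.60, adjusted p = 0.0331, limma). The calls of Sgk1 and Kcnj16 were kept under 7 and 5 of 12 alternatives. Both were lost with no filter, without knockout replicate 2 and without wild-type replicate 2 (adjusted p of 0.101 and 0.112 without the last, limma), that of Kcnj16 also with TPM, and each without 2 or 3 further libraries. The kinases between WNK and NCC, Stk39 (SPAK) and Oxsr1 (OSR1), had log2 fold changes of −0.07 and 0.01, and Cul3, which pairs with KLHL3, had −0.02. None of these 3 passed, and their groups overlapped.

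Of 12 magnesium handling partners, 11 were tested after UUO and 2 were higher, against 6.21% of all genes, with a median of 0.17. Fxyd2, the gamma subunit of the sodium-potassium pump, was 298 FPKM in β-catenin knockout mice and 144 FPKM in wild-type mice (log2 fold change 1.04, adjusted p = 0.0203, limma). Pcbd1, a transcriptional cofactor and pterin dehydratase, was 118 FPKM in knockout and 64.8 FPKM in wild-type mice (0.84, adjusted p = 0.0202, limma). Both calls were lost with no filter and without knockout replicate 1, knockout replicate 2, wild-type replicate 2 or wild-type replicate 3, and that of Pcbd1 also without wild-type replicate 1 (highest adjusted p of 0.0763 for Fxyd2 and 0.0747 for Pcbd1, limma). Both genes are also expressed outside this segment. Egf, a hormone made in this segment and the thick ascending limb that acts on TRPM6, was 5.89 FPKM in knockout and 1.59 FPKM in wild-type mice and did not pass (1.26, adjusted p = 0.0974, limma).

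Of 14 calcium handling partners, 11 were tested after UUO and 1 was higher, which is near the 6.21% of all genes, with a median of 0.39. This was Vdr, the vitamin D receptor, at 61.9 FPKM in β-catenin knockout mice and 30.9 FPKM in wild-type mice (log2 fold change 0.99, standard error 0.12, adjusted p = 0.00981, limma), a call kept under all 12 alternatives. Atp2b1, a calcium pump of the plasma membrane, was 7.13 FPKM in knockout and 9.66 FPKM in wild-type mice and did not pass (−0.40, adjusted p = 0.0711, limma). After UIRI the 3 lists had 1, 0 and 1 members called higher, of 17, 11 and 11 tested, against 4.02% of all genes. Atp1b1, a subunit of the sodium-potassium pump, was 551 FPKM in mice labelled CD44 knockout and 381 FPKM in wild-type mice (0.53, adjusted p = 0.0392, limma). Pth1r, the parathyroid hormone receptor, was 199 FPKM in mice labelled CD44 knockout and 113 FPKM in wild-type mice (0.80, adjusted p = 0.0267, limma). These calls were kept under 4 and 5 of 12 alternatives. Both were lost with no filter, with the replicate block and without any 1 library other than labelled CD44 knockout replicate 2. That of Atp1b1 was also lost with TPM. The highest adjusted p was 0.147 for Atp1b1 and 0.108 for Pth1r (limma). All of these are whole kidney values, and which cells gave the reads of Vdr, Pth1r and the other partners was not tested.

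Markers of other cells were also called in both comparisons. Of all genes tested, 6.21% were higher and 4.36% lower after UUO, and 4.02% were higher and 2.19% lower after UIRI. After UUO, 7 of 10 proximal tubule markers and 2 of 7 thick ascending limb markers were higher and none was lower, with medians of 1.16 and 0.61. Their summed FPKM was 1341 to 1749 in β-catenin knockout mice and 561 to 684 in wild-type mice for the proximal tubule, and 517 to 906 in knockout and 320 to 462 in wild-type mice for the thick ascending limb. Of 8 macrophage markers 6 were lower, summing to 557 to 637 FPKM in knockout and 1030.0 to 1266 FPKM in wild-type mice, and of 8 fibroblast and matrix markers 4 were lower. Of 8 principal cell markers tested 1 was higher, of 7 intercalated cell markers 1 was lower, and of 7 markers of tubule epithelium in general none was called. Of the other lists after UUO, 1 of 6 injured tubule, 1 of 5 endothelial, 0 of 5 podocyte and 0 of 2 skeletal muscle markers tested were lower and none was higher. After UIRI, 5 of 10 proximal tubule markers were higher, 4 of 8 macrophage markers and 1 of 8 fibroblast markers were lower, and no marker of the other lists was called. In either comparison, a single call in lists this short is not set apart from the shares of all genes. When a library was left out, the calls after UUO were 1 to 6 proximal tubule and 0 to 2 thick ascending limb markers higher, and 2 to 5 macrophage and 0 to 6 fibroblast and matrix markers lower. The fewest in each of these lists were without wild-type replicate 2, at 1, 0, 2 and 0. With no filter, the calls in these lists after UUO were 1, 1, 3 and 1. After UIRI, none of the proximal tubule, macrophage and fibroblast markers was called with no filter, with the replicate block or without any 1 library other than labelled CD44 knockout replicate 2, and without that one 8, 8 and 4 were. The part of these shifts in the values of Wnk4, Klhl3, Trpm6 and the partner genes was not tested.

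**Figure D4:**
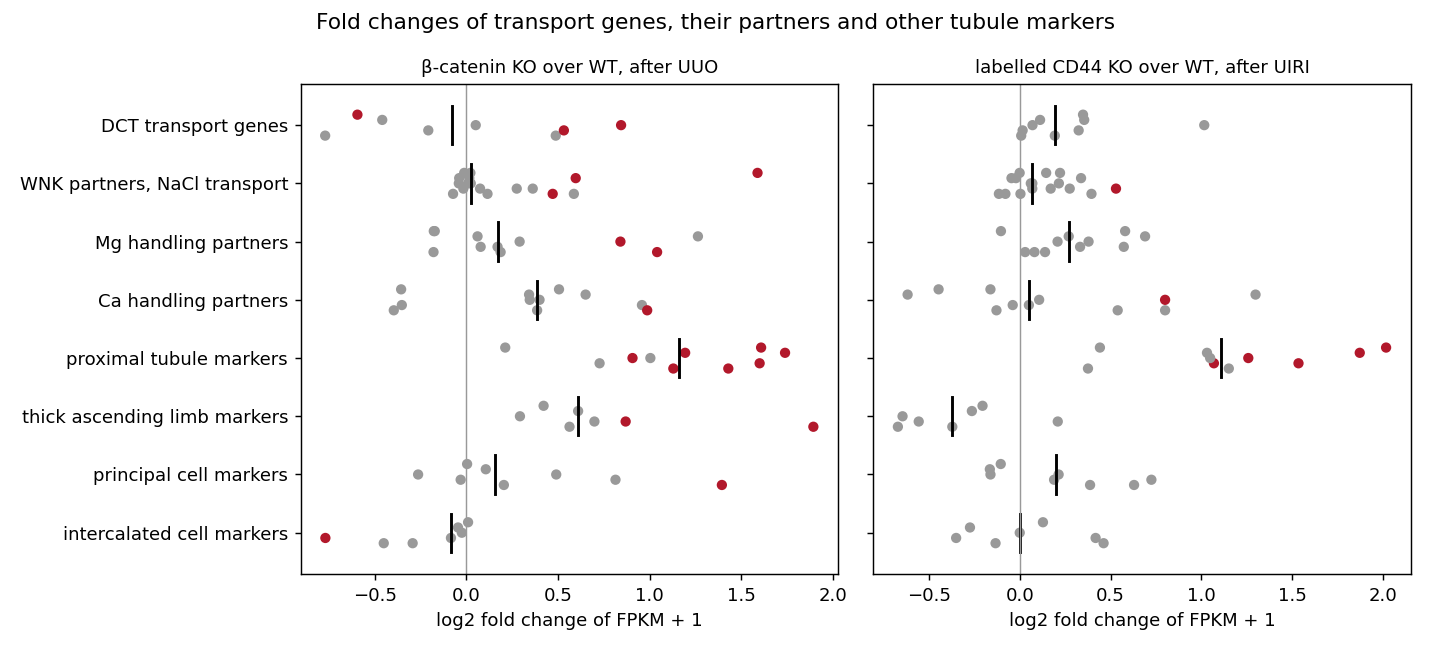
Log2 fold change of FPKM + 1 for the members (top), their partners by role and markers of other tubule cells, for β-catenin knockout over wild-type mice after UUO (left) and mice labelled CD44 knockout over wild-type mice after UIRI (right). Points are genes, red where the adjusted p is under 0.05 in limma, and black bars are list medians. The members' medians are −0.08 and 0.19, and those of the proximal tubule markers are 1.16 and 1.11.

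The genes whose pattern over mice was most like that of Slc12a3 were sought by the smaller of the 2 within-table correlations, each over 6 libraries, among 12027 genes. They were Prpf3 (Pearson r 0.83 over the UUO libraries and 0.87 over the UIRI libraries), Intu (0.80 and 0.97), Cttnbp2 (0.79 and 0.79), Podxl (0.78 and 0.89) and Cwc25 (0.75 and 0.76). With 6 libraries and so many genes, values of this size describe the libraries only.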

How the data were processed

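Kidney RNA libraries of 12 mice were made with the NEBNext Ultra RNA kit. Per the labels, the authors used HISAT2 2.0.5 for alignment to GRCm38, featureCounts 1.5.0-p3 for counting reads and DESeq2 1.20.0. The deposited values were FPKM, in a table per knockout with 6 libraries each, beside the gene length from which the authors made them. The columns of wild-type mice have the same names in both tables and were assigned by the knockout of their table. FPKM times gene length gave whole reads within 0.01 read, with the depth term the authors computed per table, so that levels were not tested across tables.

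Each knockout was compared with limma 3.58.1 in R 4.3.3 (lmFit, eBayes with trend) on log2(FPKM + 1), pseudocount 1, among genes averaging 0.5 FPKM or more, adjusted by Benjamini-Hochberg, with calls at 0.05. Interactions were fitted over 12 libraries. Ratios used exact permutation tests (SciPy 1.17.1). The procedure was tested on simulated reads. Alternatives were a pseudocount of 0.1, no filter, a filter at 1 FPKM, TPM, voom on the reads recovered, a block for the replicate number, and each library left out.

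The members, lists and tests were chosen with earlier results of these data known. Named genes were the members, the targeted genes, up to 4 called genes per list with the smallest p, and the 5 most like Slc12a3. Egf, Atp2b1, Stk39, Oxsr1 and Cul3 were named after their values were seen, and called markers of other cells are given as counts. A further gene that the rule names is not reported here.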

Additional observations from a re-analysis of the deposited data

How the results depend on the processing

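After UUO, Wnk4 and Klhl3 were above and Trpm6 below wild-type mice under each of the 12 alternatives, and the calls lost are given with the results. Among members, the 2 higher and 1 lower after UUO became 1 and 0 with no filter and 1 and 1 with TPM, and leaving out each library gave 0 to 2 higher and 0 to 1 lower. After UIRI 1 member was higher with a filter at 1 FPKM and with voom. Over all genes after UUO, 280 were higher and 193 lower with no filter, 578 and 1178 with TPM, and 116 to 1614 and 95 to 807 when a library was left out. The fewest were called without wild-type replicate 2, and the most without knockout replicate 3. After UIRI, 43 were higher and 20 lower with no filter, 220 higher with TPM, 1044 and 667 with voom, and 0 to 1413 and 1 to 761 when a library was left out. The 1413 and 761 were without labelled CD44 knockout replicate 2, and leaving out any other library gave at most 4 and 5. TPM moved the median log2 fold change of all genes to −0.19 after UUO and −0.12 after UIRI. Its signs turned for Slc12a3 after UUO (−0.17) and, after UIRI, for Slc12a3 (−0.021), Trpm6 (−0.11), Trpv5 (−0.11) and Wnk1 (−0.057), and voom turned Trpm6 after UIRI (−0.0023). None of these was called. Leaving out each library gave log2 fold changes of −0.11 to 0.19 for Slc12a3 after UUO and, after UIRI, of −0.18 to 0.32 for Slc12a3, −0.10 to 0.10 for Trpm6, −0.020 to 0.53 for Calb1, −0.23 to 0.30 for Trpv5 and −0.10 to 0.19 for Wnk1. For the difference between the comparisons they were −0.27 to 0.23 for Slc12a3 and −0.038 to 0.51 for Calb1. Deviations from the group means were correlated between knockout and wild-type mice of a table. For same-numbered mice r was 0.08, 0.20 and 0.04 after UUO and −0.14, −0.03 and −0.03 after UIRI. For differently numbered mice it ran from −0.16 to 0.08 after UUO and from −0.11 to 0.15 after UIRI. The numbers were not taken to pair the mice. With the replicate block, 992 genes were higher and 675 lower after UUO with the same member counts, and 0 and 0 after UIRI. The cause of these moves was not tested. Pvalb was at or under 3 reads in every UUO library, which limits what could be detected there.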
